A study of Homo sapiens with 6 samples.

Results

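The aminoacyl-tRNA synthetases are the enzymes that load each amino acid onto its transfer RNA. They were represented here by 35 of the 60609 genes listed for each library, 19 coding for cytosolic and 16 for mitochondrial enzymes. The genes were chosen by name, with symbols matched to Ensembl identifiers. RNA was sequenced from OCI-AML5 cells, a human cell line from an acute myeloid leukemia that was grown with the cytokine GM-CSF. There were 3 libraries from cells given S767 at 1 μM for 24 hours and 3 from cells given the solvent DMSO for the same time. S767 is a compound that the study selected for its activity against leukemia cells, and the comparison asks how it changed gene expression. It covers 1 cell line, 1 dose and 1 time point.

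Each synthetase recognizes 1 amino acid and the transfer RNAs that carry it, and protein synthesis stops at a codon when the matching charged transfer RNA runs out. The cytosol and the mitochondrion each have their own set, and nearly all mitochondrial enzymes come from separate nuclear genes whose products are imported. *GARS1* and *KARS1* serve both compartments, and *EPRS1* joins the glutamate and proline enzymes in a single chain. Several cytosolic enzymes form the multi-synthetase complex around the scaffold proteins AIMP1, AIMP2 and EEF1E1. In the amino acid response, uncharged transfer RNA activates the kinase GCN2 (*EIF2AK4*), translation of the transcription factor ATF4 increases, and ATF4 raises the transcription of many cytosolic synthetases together with amino acid transporters and biosynthetic enzymes.

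The number of fragments assigned to genes ran from 149994700 to 258029564 per library. Of 10 markers of myeloid leukemia cells, 9 passed the filter on low counts. The mean level of these 9 over the 6 libraries ran from 0.277 to 368.8 TPM, with a median of 73.6 TPM. *SPI1*, a myeloid transcription factor, had a mean level of 235.2 TPM in DMSO, and *CD33*, a myeloid surface protein, had 94.0 TPM. *CD3E* of T cells was listed at 0 in all 6 libraries, and the summed level of 9 markers of other cell types was 2.53 to 3.57 TPM in DMSO and 2.59 to 3.71 TPM in S767. TPM is a transcript level scaled to transcript length and library size, which allows genes to be compared within a library. CPM is a fragment count scaled to library size alone and compares 1 gene between libraries. The study's methods give the treatment as done in triplicate, but neither they nor the labels say whether the replicates were separate cultures, so p-values measure the spread between these libraries, which may be technical. Fewer cells of a kind and less RNA per cell cannot be told apart in such bulk samples.

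All 35 synthetase genes were expressed, and transcripts of the cytosolic enzymes were on the whole far more abundant. Summed over the 19 cytosolic genes, the level was 2499, 2432 and 2523 TPM in the DMSO libraries and 2494, 2391 and 2473 TPM in the S767 libraries. The 16 mitochondrial genes summed to 435.2, 438.0 and 429.8 TPM in DMSO and 442.3, 431.2 and 424.4 TPM in S767. Both sums overlapped between treatments. The cytosolic sum was 5.72 ± 0.160 times the mitochondrial sum in DMSO and 5.67 ± 0.143 times in S767 (SD, n = 3 each).

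Among cytosolic enzymes, the mean level over the 6 libraries ran from 22.7 TPM for *FARSB* to 284.6 TPM for *FARSA*, with a median of 124.1 TPM over the genes. These are the beta and alpha subunits of phenylalanyl-tRNA synthetase, which works as a tetramer with equal numbers of each. *FARSA* had 290.6, 287.2 and 287.6 TPM in DMSO and 284.0, 278.5 and 279.9 TPM in S767. *FARSB* had 22.2, 23.1 and 23.5 TPM in DMSO and 22.2, 22.5 and 22.5 TPM in S767. In TPM, the alpha transcript was 12.6 ± 0.455 times as abundant as the beta transcript in DMSO and 12.5 ± 0.233 times in S767 (SD, n = 3 each). This ratio rests on the transcript length, since RSEM used a mean length of 6738 bases for *FARSB* while its joined exons in GENCODE 29 hold 3369. With RSEM expected counts per base of joined exons the ratio was 4.20 ± 0.139 in DMSO and 4.18 ± 0.0656 in S767, and *FARSB* ranked 13 of the 19 cytosolic genes from the top, with *CARS1* the lowest and *FARSA* still the highest. Every *FARSA* value in S767 lay below every value in DMSO on the TPM scale, but not on the CPM scale used for testing. After *FARSA* came *KARS1* for lysine with 197.5 TPM, *QARS1* for glutamine with 185.0, *MARS1* for methionine with 176.8, *YARS1* for tyrosine with 176.2 and *TARS1* for threonine with 169.1. The DMSO values of *QARS1*, *MARS1*, *YARS1* and *TARS1* overlapped, so that these neighbours could not be put in order. Their place also depends on the length used. Per base of joined exons *KARS1* still ranked 2, but *QARS1*, *MARS1*, *YARS1* and *TARS1* ranked 9, 12, 14 and 10, and *NARS1* ranked 3. At the lower end, *CARS1* for cysteine had 46.9 TPM, *HARS1* for histidine 62.2, *RARS1* for arginine 74.9 and *SARS1* for serine 77.6. The 7 listed members of the multi-synthetase complex (*EPRS1*, *IARS1*, *KARS1*, *LARS1*, *MARS1*, *QARS1* and *RARS1*) ranged from 74.9 to 197.5 TPM, and their scaffolds from 70.9 TPM for *AIMP1* to 96.6 TPM for *EEF1E1*.

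**Figure D1:**
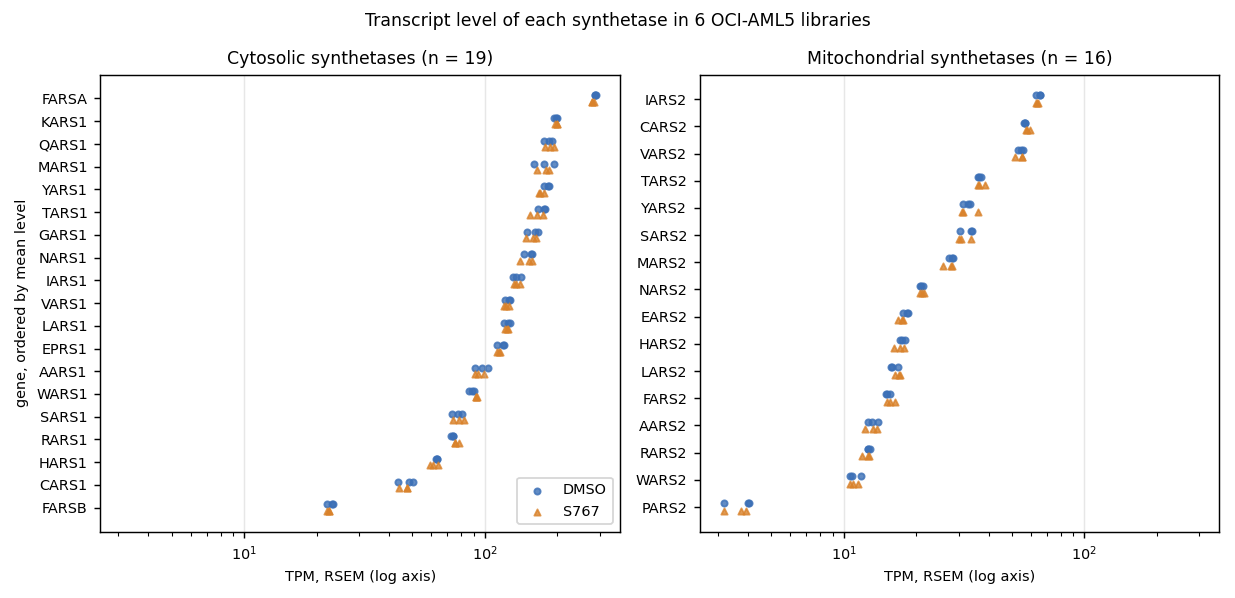
Transcript level of the 19 cytosolic and 16 mitochondrial synthetases in TPM on a log axis, with 1 point per library, circles for DMSO and triangles for S767. The cytosolic genes run from 22.7 TPM for FARSB to 284.6 TPM for FARSA, the mitochondrial genes from 3.67 TPM for PARS2 to 64.2 TPM for IARS2, and for nearly every gene the points of both treatments lie on top of each other.

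The mitochondrial enzymes ranged from 3.67 TPM for *PARS2*, which charges proline, to 64.2 TPM for *IARS2*, which charges isoleucine, with a median of 19.4 TPM. *PARS2* had 4.01, 3.17 and 4.04 TPM in DMSO and 3.75, 3.17 and 3.91 TPM in S767. Its lowest value was in the library numbered 2 of each treatment. *IARS2* had 63.1, 65.6 and 65.7 TPM in DMSO and 64.0, 63.7 and 63.2 TPM in S767. *CARS2* for cysteine (57.3 TPM) and *VARS2* for valine (54.2 TPM) followed *IARS2*, and *WARS2* for tryptophan (11.0 TPM), *RARS2* for arginine (12.6 TPM) and *AARS2* for alanine (13.1 TPM) lay just above *PARS2*. The other 9 genes lay between 15.5 TPM for *FARS2* and 36.9 TPM for *TARS2*. This order depends on the length used as well. Per base of joined exons *IARS2* was still the highest and *PARS2* the lowest of the 16. On that scale *CARS2* ranked 13 from the top, *VARS2* 6 and *AARS2* 5, while *MARS2* ranked 2 and *YARS2* 3.

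*EPRS1*, for glutamate and proline, was not set against *EARS2* or *PARS2*. In DMSO the mean levels of these genes were 117.1, 18.2 and 3.74 TPM. *EPRS1* and *PARS2* thus differed by a larger factor than any pair ranked below. For 14 other amino acids both a cytosolic and a mitochondrial enzyme were listed. They gave 15 ratios because the cytosolic phenylalanine enzyme has both subunits. In TPM the cytosolic transcript was the more abundant in 14 of the 15. The exception was cysteine, where *CARS1* had 50.4, 43.5 and 48.7 TPM in DMSO and *CARS2* had 56.6, 56.6 and 56.3 TPM. All *CARS2* values exceeded all *CARS1* values, and the ratio of cytosolic to mitochondrial transcript was 0.841 ± 0.0646 in DMSO and 0.798 ± 0.0356 in S767 (SD, n = 3 each). Per base of joined exons the direction turned, with a ratio of *CARS1* to *CARS2* of 1.32 ± 0.0800 in DMSO and 1.25 ± 0.0358 in S767. The cytosolic transcript was then the more abundant in 15 of the 15. The joined exons hold 10037 bases for *CARS1* and 10460 for *CARS2*, against mean RSEM lengths of 2391 and 1664. The order of the cysteine enzymes thus depends on the length used, and which length is nearer to the transcripts present was not tested. Among these 15 ratios, the highest in TPM was that of *FARSA* to *FARS2*, at 18.9 ± 0.459 in DMSO and 17.9 ± 0.834 in S767. Next came *WARS1* to *WARS2*, at 8.01 ± 0.487 and 8.38 ± 0.263, and *LARS1* to *LARS2* for leucine, at 7.70 ± 0.343 and 7.35 ± 0.211. Ratios near the lower end were 2.10 ± 0.0487 and 2.14 ± 0.0800 for *IARS1* to *IARS2*, 2.30 ± 0.0853 and 2.28 ± 0.0549 for *VARS1* to *VARS2*, and 1.503 ± 0.0382 and 1.43 ± 0.0466 for *FARSB* to *FARS2*.

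**Figure D2:**
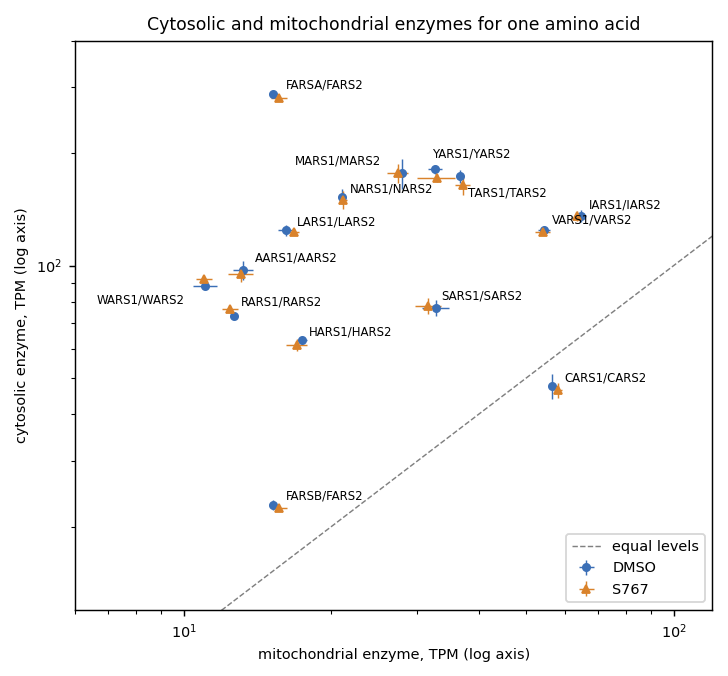
Mean TPM of the cytosolic enzyme (vertical log axis) against that of the mitochondrial enzyme for the same amino acid (horizontal log axis), with SD bars over 3 libraries, circles for DMSO and triangles for S767. On this scale all pairs shown but CARS1 and CARS2 lie above the dashed line of equal levels. Treated and control points of each pair lie close together, and EPRS1 is not shown.

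The test of the ratios gave no call with S767, and with 3 libraries per group it could give none. The largest shift of a mean log2 ratio was 0.10 in size, for *TARS1* to *TARS2*, with an exact two-sided permutation p of 0.4. The ratio of *RARS1* to *RARS2* was higher in every S767 library, at 5.79 ± 0.0586 in DMSO and 6.14 ± 0.208 in S767, and that of *FARSB* to *FARS2* was lower in every S767 library. For both the exact two-sided permutation p was 0.1, the smallest that 3 libraries against 3 allow, and 0.75 after Benjamini-Hochberg adjustment over the 15 ratios. This test leaves out the replicate numbers, which pair the libraries as described below. Within same-numbered pairs, 10 of the 15 ratios had the same sign in all 3 pairs, 4 of them higher and 6 lower in S767. Among single genes 37.8% of all had such agreement, and ratios of other genes were not examined, so the count has no like share beside it. The ratios of *FARSA* and *FARSB* share *FARS2* and are not independent. The ratio of *TARS1* to *TARS2* was lower in each, by -0.03, -0.15 and -0.12 on the log2 scale. An exact paired permutation test of 3 pairs cannot go below p = 0.25 (two-sided), the value for these 10 ratios.

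The levels above are RSEM estimates, and for most members the count table told the same. The fragments counted on a gene amounted to 93.0 to 120.4% of the RSEM estimate for 33 of the 35 members. The table kept only 10.5% of the RSEM estimate for *SARS2*, the mitochondrial serine enzyme, with 579 to 873 counts per library, and 0.863% for *VARS2*, with 79 to 235. In GENCODE 29 on GRCh38, 46.2% of the exon bases of *SARS2* (chr19:38915266-38930896, minus strand) also belong to exons of *AC011455.2*, a protein-coding gene on the same strand. For *VARS2* (chr6:30908242-30926459, plus strand), 22% of the exon bases are shared with genes on the same strand, most of them with *GTF2H4*. No other member shared over 4.07% of its exon bases, and 29 shared none. The annotation used for counting is not given, and what caused the low counts was not tested. Because so few of their fragments were counted, fold changes of *SARS2* and *VARS2* are given from RSEM expected counts below. The counts of members called include them as the count table has them.

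Promoter sequences from RefSeq (GRCh38.p14, 250 bases before to 50 bases after each start site) were matched for 30 of the 35 members, and not for *LARS1*, *VARS1*, *YARS1*, *AARS2* and *VARS2*. They were searched on both strands for the core of the C/EBP-ATF response element, TGATGNAA, through which ATF4 is known to act. At least 1 match was found in 4.46% of the 27305 genes with a promoter. It was found in 7 of the 10 cytosolic synthetases that are known targets of ATF4 and have a promoter here, in 0 of the 6 other cytosolic synthetases and in 1 of the 14 mitochondrial ones, *YARS2*. The matches are shown with 10 bases on either side, since they are the sequences through which the amino acid response would be read, and capitals mark the element on the strand that holds it.
AARS1: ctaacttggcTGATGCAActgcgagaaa
CARS1: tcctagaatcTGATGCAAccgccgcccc
GARS1: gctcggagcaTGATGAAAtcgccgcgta
IARS1: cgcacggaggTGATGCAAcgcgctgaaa
MARS1: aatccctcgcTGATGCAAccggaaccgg
NARS1: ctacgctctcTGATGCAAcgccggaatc
TARS1: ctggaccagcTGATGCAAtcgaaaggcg
YARS2: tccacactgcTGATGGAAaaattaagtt
The stretches lie at chr16:70289676-70289703 for *AARS1*, chr11:3057408-3057435 for *CARS1*, chr7:30594835-30594862 for *GARS1*, chr9:92293693-92293720 for *IARS1*, chr12:57488054-57488081 for *MARS1*, chr18:57621805-57621832 for *NARS1*, chr5:33440957-33440984 for *TARS1* and chr12:32756077-32756104 for *YARS2*. Except in *AARS1* and *YARS2*, where it began 187 and 197 bases before the start site, the element lay within 33 bases of a start site. It stood on the minus strand of the chromosome in *NARS1*, *TARS1*, *GARS1*, *MARS1* and *YARS2*, and on the plus strand in *AARS1*, *CARS1* and *IARS1*. A match is a description of the letters and not a site shown to be bound.

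Another element was looked for because *WARS1*, for tryptophan, is known to be induced by interferon gamma. The interferon-stimulated element, searched as GAAA, any 2 bases and GAAA again, was found in 4.38% of all genes with a promoter, in 1 cytosolic synthetase, *WARS1*, and in 1 mitochondrial one, *EARS2*. In *WARS1* it ended 46 bases before a start site (chr14:100375383-100375412, minus strand).
WARS1: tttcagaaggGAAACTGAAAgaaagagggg
*HARS1* and *HARS2* are neighbours on chromosome 5, transcribed away from each other, with 84 bases between their start sites. The core recognized by ETS factors, CCGGAAGT, was found in 4.95% of all genes with a promoter. It was found in 5 of the 16 cytosolic synthetases (*CARS1*, *HARS1*, *NARS1*, *TARS1* and *WARS1*) and in 3 of the 14 mitochondrial ones (*EARS2*, *HARS2* and *PARS2*). For the *HARS* genes it stood at each end of this gap, directly before each start site, on the strand of the gene it precedes.
HARS1: gactcgatagCCGGAAGTcatccttgct
HARS2: ccggctcctcCCGGAAGTgccgaagctg
The transcripts on either side differed in level, with 63.1 ± 0.454 TPM for *HARS1* and 17.5 ± 0.420 TPM for *HARS2* in DMSO (SD, n = 3 each). Their ratio was 3.61 ± 0.0606 in DMSO and 3.61 ± 0.162 in S767 in TPM, and 1.43 ± 0.0194 and 1.44 ± 0.0487 per base of joined exons. The E-box CACGTG was found in 8.77% of all genes with a promoter, in *IARS1* among cytosolic and in *CARS2*, *EARS2* and *MARS2* among mitochondrial synthetases. The NRF1 core GCGCATGCG was found in 2.34%, and in *MARS2* among the synthetases.

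The cytosolic synthetases differed little between S767 and DMSO. Of the 19 genes, all of which were tested, 1 had a *P* value under 0.05 in edgeR's quasi-likelihood test, *YARS1*, which was lower. Over all 20725 genes tested, 3.53% had such a *P* value, 2.03% higher and 1.51% lower in S767. No synthetase passed an adjusted p of 0.05, which 1 of the tested genes did (0.00483%). On the log2 scale, the fold change of the 19 genes had a median of -0.010, beside -0.0002 over all genes tested, and 13 of them lay below 0. The values ran from -0.08 for *YARS1* to 0.08 for *WARS1*. The gene past the adjusted limit, *ALAS1* of heme synthesis, had 0.84 on this scale.

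*YARS1* (ENSG00000134684.10) lies on chromosome 1 from 32775237 to 32818153. It had 295.6, 285.3 and 298.2 CPM in DMSO and 273.3, 278.7 and 278.5 CPM in S767. All 3 S767 libraries lay below all 3 DMSO libraries (exact two-sided permutation p = 0.1, the smallest possible). Its fold change was -0.08 on the log2 scale (standard error 0.04), and Benjamini-Hochberg adjustment of the edgeR *P* value gave an adjusted p of 1.00. With the replicate block described below, the standard error was 0.02 and the adjusted p 0.0937.

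The libraries also differed by replicate number. Deviations from the group means were shared between the DMSO and S767 libraries of the same number, with correlations of 0.78, 0.87 and 0.75 across 6191 well expressed genes. They were negatively correlated between all others. As the 3 deviations of a gene within a group sum to 0, these negative values follow on average from the positive ones. A fit with the number as a block was therefore made too. With the replicate block, 16.8% of all genes had a *P* value under 0.05 (9.38% higher and 7.39% lower), and 3.23% passed an adjusted p of 0.05. Of the cytosolic synthetases, 4 of 19 had a *P* value under 0.05, *YARS1* and *TARS1* lower and *WARS1* and *RARS1* higher, and 0 passed an adjusted p of 0.05. Such shares are near those of all genes.

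The genes named by this fit differed by a few percent between treatments. *TARS1*, for threonine, had 257.8, 245.1 and 260.3 CPM in DMSO and 249.9, 228.8 and 243.9 CPM in S767. It was lower in S767 in each same-numbered pair, although the groups overlapped, and its log2 fold change was -0.08 (standard error 0.02, adjusted p = 0.0895 with the block). *WARS1* had 107.0, 103.3 and 106.6 CPM in DMSO and 107.3, 115.0 and 113.2 CPM in S767. Every S767 library of *WARS1* lay above every DMSO library, by less than 1 CPM for the library numbered 1, and the log2 fold change was 0.08 (standard error 0.03, adjusted p = 0.161 with the block). *RARS1*, for arginine, had 105.2, 107.8 and 103.3 CPM in DMSO and 107.9, 110.4 and 110.4 CPM in S767. Its groups did not overlap either, and the log2 fold change was 0.05 (standard error 0.02, adjusted p = 0.268 with the block). In CPM, 3 of the 19 cytosolic synthetases had groups that did not overlap, *YARS1*, *WARS1* and *RARS1*, and 9.21% of all genes did.

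These values depended on single pairs. Without the pair numbered 1, the fit with the block gave *TARS1* -0.10 on the log2 scale (standard error 0.02, adjusted p = 0.00285 by edgeR) and *WARS1* 0.12 (standard error 0.03, adjusted p = 0.000571). The share of all genes past this limit was then 9.86%. Without the pair numbered 2, these genes did not pass, and 0.113% of all genes did.

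The remaining cytosolic genes had log2 fold changes of at most 0.04 in size. *QARS1* (0.04) and *SARS1* (0.04) were the next highest after *RARS1*, and *CARS1* (-0.02) and *GARS1* (-0.02) the next lowest after *TARS1*. The 95% confidence intervals were made gene by gene. They describe differences between these libraries, whose spread may be technical. Without the block they reached from -0.18 for *TARS1* to 0.20 for *QARS1*, that is from -11.9% to 14.5%, and all 19 lay within 0.2 of 0. With the block they reached from -0.13 for *YARS1* to 0.14 for *WARS1*. The 11 cytosolic synthetases known as ATF4 targets had a median log2 fold change of -0.010, with 3 above 0, and the other 8 had -0.002, with 3 above 0. Of the 7 genes above with the ATF4 element in their promoter, *IARS1* had 0.01, *MARS1* -0.003, *NARS1* -0.01, *AARS1* -0.02, *CARS1* -0.02, *GARS1* -0.02 and *TARS1* -0.08. The 7 members of the multi-synthetase complex had a median of 0.013.

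**Figure D3:**
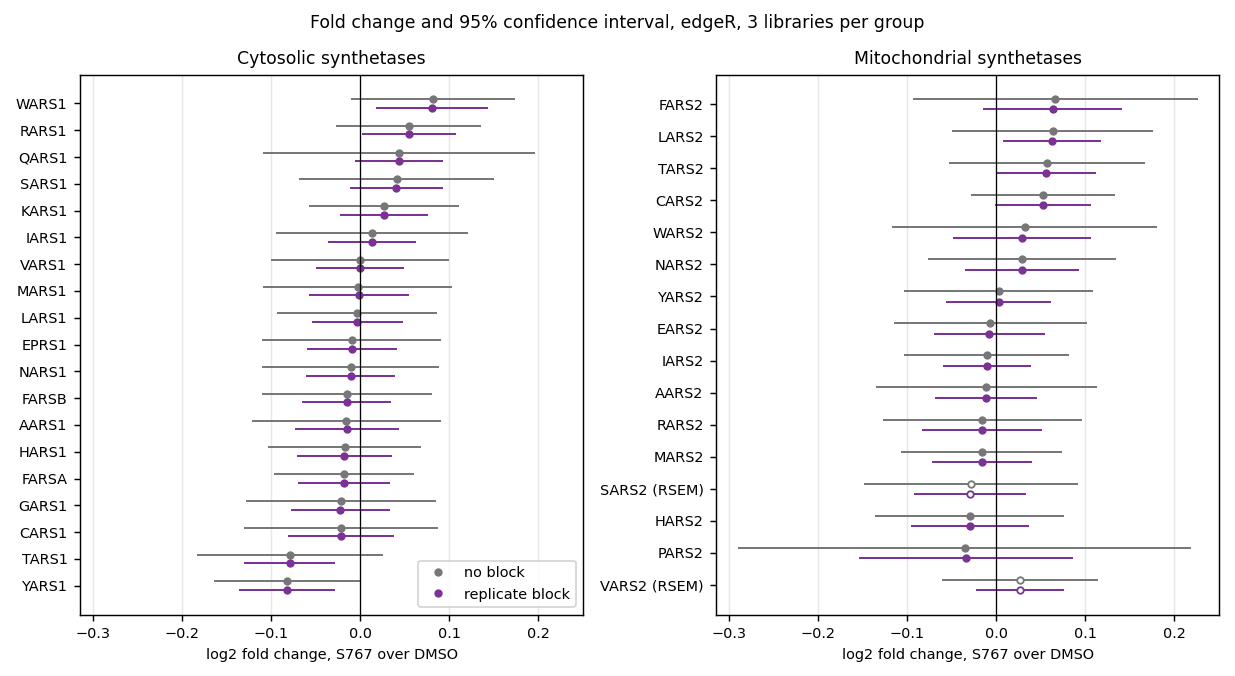
log2 fold change of S767 over DMSO with its 95% confidence interval for each synthetase, from edgeR without the replicate block (grey) and with it (purple). Open symbols are RSEM expected counts for SARS2 and VARS2. The cytosolic values lie between -0.08 for YARS1 and 0.08 for WARS1, and most intervals span 0.

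The mitochondrial synthetases did not pass the test either. Of the 16 genes, all tested, 0 had a *P* value under 0.05 by edgeR without the block, where 3.53% of all genes did, and DESeq2 and limma-voom gave 0 as well. The median log2 fold change was -0.009, with 7 genes above 0, and -0.002 without *SARS2* and *VARS2*. With the replicate block, 3 of 16 had a *P* value under 0.05, all higher in S767, and 0 passed an adjusted p of 0.05. They were *LARS2*, *TARS2* and *CARS2*, and 9.38% of all genes were higher by that limit.

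*LARS2*, for leucine, had 54.1, 56.9 and 53.3 CPM in DMSO and 56.0, 60.5 and 55.2 CPM in S767, which overlap. Its log2 fold change with the block was 0.06 (standard error 0.02, adjusted p = 0.221 by edgeR). *TARS2*, for threonine, had 64.3, 68.1 and 64.8 CPM in DMSO and 65.0, 71.8 and 68.3 CPM in S767, and these values overlap too. *CARS2* had 65.7, 65.9 and 64.3 CPM in DMSO and 68.2, 67.2 and 67.8 CPM in S767. It was the mitochondrial gene whose groups did not overlap, and its log2 fold change in edgeR was 0.05 (standard error 0.02, adjusted p = 0.298 with the block). All 3 genes were higher in S767 in each same-numbered pair. Such agreement in sign was met in 15 of the 35 synthetases and in 37.8% of all genes.

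RSEM expected counts gave a like picture for the 35 synthetases. Fitted without the block, *YARS1* alone (1 gene) passed a *P* value of 0.05 and was lower in S767, beside 3.7% of all genes (2.1% higher and 1.6% lower), and 0 passed an adjusted p of 0.05 (0.0053% of all genes). With the block, 6 had a *P* value under 0.05, 4 higher and 2 lower, beside 17.6% of all genes (9.72% higher and 7.9% lower), and 0 passed an adjusted p of 0.05 (2.09% of all genes).

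*FARS2*, for phenylalanine, had the highest mitochondrial log2 fold change, 0.07 (standard error 0.07), and *PARS2* the lowest among genes well covered by the counts, -0.04 (standard error 0.11). After *PARS2* came *HARS2* with -0.03 and *MARS2*, for methionine, with -0.02. From RSEM expected counts, *VARS2* had 0.03 (95% confidence interval -0.06 to 0.11) and *SARS2* had -0.03 (-0.15 to 0.09). From the count table *VARS2* had -0.05 with an interval from -0.69 to 0.58, at its 79 to 235 counts per library. Apart from these genes, the intervals of the mitochondrial members without the block reached from -0.29 for *PARS2* to 0.23 for *FARS2*, that is from -18.1% to 16.9%, and 12 of 14 lay within 0.2 of 0. With the block they reached from -0.15 for *PARS2* to 0.14 for *FARS2*, and 14 of 14 lay within 0.2 of 0.

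The enzymes of the cytosol and the mitochondrion that charge the same amino acid can be set side by side where a cytosolic gene was named above. For threonine, *TARS1* had a log2 fold change of -0.08 and *TARS2* 0.06. For tyrosine, *YARS1* had -0.08 and *YARS2* 0.003. For tryptophan, *WARS1* had 0.08 and *WARS2* 0.03, and for arginine *RARS1* had 0.05 and *RARS2* -0.02. For cysteine, *CARS1* had -0.02 and *CARS2* 0.05. The unpaired exact permutation test of each ratio, given above, gave an adjusted p of 0.75 or more. Its p cannot go below 0.1 with 3 libraries per group, so it cannot decide whether the partners differed.

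The size of the log2 fold change had a median of 0.018 over the cytosolic and 0.029 over the mitochondrial genes. It was 0.037 over the 9987 genes counted at or above the level of the lowest well-covered synthetase. The median standard error without the block was 0.04 for cytosolic and 0.05 for mitochondrial genes, beside 0.05 over those genes. Levels also differed between replicate numbers. Between the highest and the lowest replicate number, averaged over both treatments, the level differed by a median of 0.09 on the log2 scale for cytosolic and 0.10 for mitochondrial synthetases. It was 0.11 over the 9987 genes.

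The deviations by library showed which genes followed the numbers. *QARS1* was lowest in both libraries numbered 1, with 195.1 CPM in DMSO and 200.8 in S767, and highest in both numbered 2, with 224.4 and 231.7 CPM. *PARS2* went the other way, and its deviation from the mean of the 6 libraries was -0.19 in DMSO 2 and -0.15 in S767 2. The library numbered 2 was the lowest of both treatments for 4 of the 19 cytosolic and 4 of the 16 mitochondrial genes, and for 21.3% of all genes. What the numbers share was not tested, and the labels do not say.

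**Figure D4:**
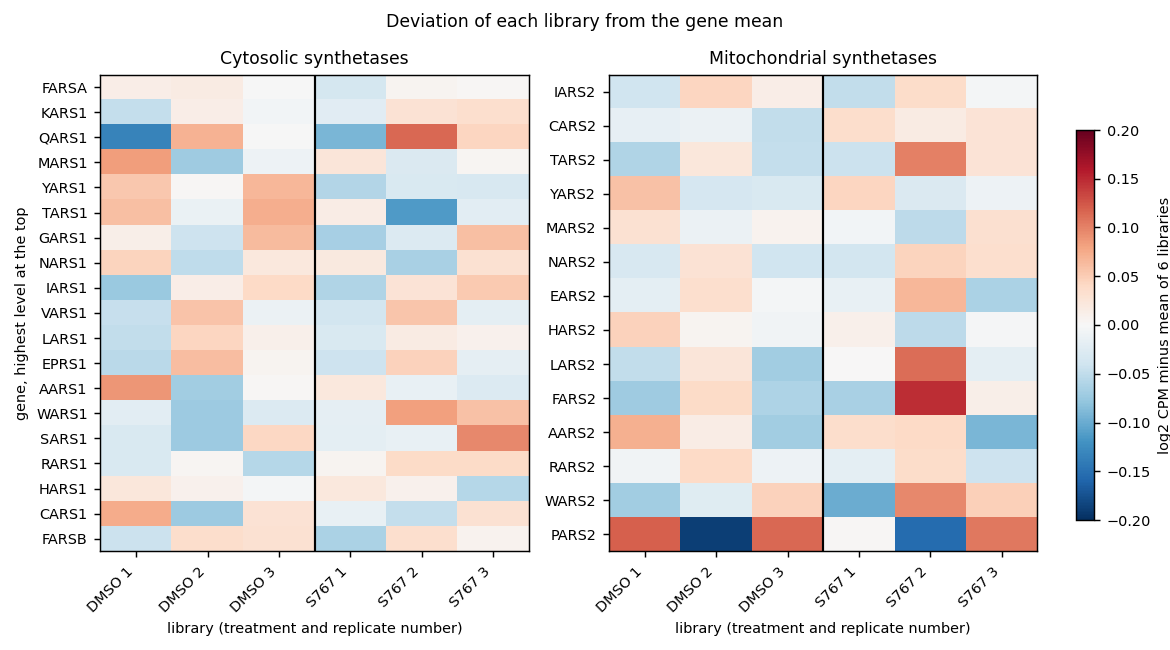
Deviation of each library from the mean of the 6 libraries, in log2 CPM, for the 19 cytosolic and the 14 well-covered mitochondrial synthetases, with blue for lower and red for higher values and DMSO left of the black line. Colours repeat from DMSO to S767 within a replicate number, as for QARS1 and PARS2, and YARS1 changes colour between treatments.

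The genes that work beside the synthetases gave few calls. The scaffolds of the multi-synthetase complex had log2 fold changes of 0.03 for *AIMP1*, 0.02 for *AIMP2* and -0.07 for *EEF1E1*, and 0 of 3 had a *P* value under 0.05 with or without the block. The count table kept 24.5% of the RSEM estimate for *EEF1E1*, whose RSEM expected counts gave -0.06 with the block (standard error 0.02), a *P* value under 0.05 and an adjusted p of 0.238 in edgeR. A list of 13 genes for mitochondrial charging and tRNA modification holds the subunits of the amidotransferase that makes glutaminyl-tRNA in mitochondria (*QRSL1*, *GATB* and *GATC*), the methionyl-tRNA formyltransferase *MTFMT* and enzymes that modify or mature tRNAs. The median of these genes was -0.033, with 3 above 0. With the block, *QRSL1* had a *P* value under 0.05 (log2 fold change 0.08, standard error 0.03, adjusted p = 0.113). Of the 3 genes that remove wrongly charged amino acids in trans, *AARSD1*, *DTD1* and *DTD2*, 0 had a *P* value under 0.05 in either fit of the counts. The count table kept 3.99% of the RSEM estimate for *AARSD1* and 34.4% for *DTD1*. RSEM expected counts with the block gave *AARSD1* 0.08 (standard error 0.03), a *P* value under 0.05 and an adjusted p of 0.185 in edgeR.

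Of the amino acid response genes, which ATF4 is known to control, 26 of 27 were tested. Their median log2 fold change was -0.037, with 8 above 0, and 1 had a *P* value under 0.05 without the block. With the block, 9 did, 8 of them lower, beside 16.8% of all genes and 7.39% lower, and 3 passed an adjusted p of 0.05, where 3.23% of all genes did. *SLC7A11*, the cystine transporter, was the gene with a *P* value under 0.05 in both fits. It had 23.6, 18.3 and 29.1 CPM in DMSO and 17.3, 16 and 18.3 CPM in S767. It was lower in S767 in each pair, and the block fit of edgeR gave -0.44 on the log2 scale (standard error 0.06, adjusted p = 0.00348). *STC2*, a secreted glycoprotein, was lower, at -0.13 (standard error 0.03, adjusted p = 0.0183). *PCK2*, the mitochondrial phosphoenolpyruvate carboxykinase, was higher, at 0.17 (standard error 0.03, adjusted p = 0.0183). Without the pair numbered 2, *SLC7A11* still passed and the other genes did not.

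The core of the response did not pass an adjusted p of 0.05. *ATF4* itself had 429.3, 395.3 and 420.0 TPM in DMSO and 401.3, 391.3 and 402.3 TPM in S767, and the log2 fold change from counts was -0.05 (standard error 0.04). These values overlap. *DDIT3*, the transcription factor CHOP, had 7.79, 7.49 and 8.38 TPM in DMSO and 8.18, 8.08 and 7.97 TPM in S767, with 0.03 (standard error 0.08). *ASNS*, asparagine synthetase, had 32.8, 29.3 and 38.9 TPM in DMSO and 32.8, 34.9 and 47.1 TPM in S767. The count table kept 3.57% of its RSEM estimate, and its log2 fold change was -0.04 (standard error 0.24) from counts and 0.24 (standard error 0.17) from RSEM expected counts. With RSEM expected counts and the block it was 0.23 (standard error 0.06), with a *P* value under 0.05 and an adjusted p of 0.0819 in edgeR. A list of 6 genes held the 4 kinases that phosphorylate eIF2 and the phosphatase subunits *PPP1R15A* and *PPP1R15B*. For these genes 0 had a *P* value under 0.05 without the block and 2 did with it, both higher, beside 16.8% of all genes and 9.38% higher, and 0 passed an adjusted p of 0.05. They were *EIF2AK4* (0.09, standard error 0.02, adjusted p = 0.0546) and *EIF2AK2*, the kinase PKR (0.10, standard error 0.03, adjusted p = 0.0582).

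*WARS1* was set beside 9 other genes that interferon gamma is known to induce, of which 6 were tested. Their median log2 fold change was 0.16, with 5 above 0, and 1 had a *P* value under 0.05 without the block, *TAP1*, a peptide transporter. *TAP1* had 48.0, 51.0 and 48.1 CPM in DMSO and 52.3, 56.5 and 54.2 CPM in S767, so that its groups did not overlap. Its log2 fold change was 0.15 (standard error 0.03, adjusted p = 0.00947 with the block). With the block 6 had a *P* value under 0.05, 5 of them higher, beside 16.8% of all genes and 9.38% higher. The adjusted limit of 0.05 was passed by 4, beside 3.23% of all genes. These 4 were higher in S767, namely *TAP1*, the transcription factor *IRF1* (0.17, adjusted p = 0.0105), the immunoproteasome subunit *PSMB9* (0.23, adjusted p = 0.0230) and *GBP4* (0.38, adjusted p = 0.0442), a guanylate-binding protein at 0.303 TPM in DMSO. *GBP2*, of the same protein family, had -0.28 (standard error 0.07, adjusted p = 0.0592). With RSEM expected counts and the block 2 passed (2.09% of all genes), *TAP1* and *IRF1*, and 0 did without the pair numbered 2. Without the pair numbered 3, *PSMB9* had 0.14 (adjusted p = 0.0847) and *GBP4* 0.37 (adjusted p = 0.125), and *TAP1* and *IRF1* passed. *WARS1* did not pass an adjusted p of 0.05 in the fit of all 6 libraries.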

How the data were processed

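The labels gave each sample's treatment and replicate number. The authors aligned the reads with STAR (2.7.1a) and quantified genes with RSEM (1.2.28), as the submitters' processing notes give them, on GRCh38. The annotation release is not given in the sources used here, and positions are those of GENCODE 29. The deposited count tables hold whole, unnormalized fragment counts per gene for both strands together and for each alone. The forward strand held 6.44 to 6.58% of the sum of both strands, so reverse-strand counts were used. The first 4 lines of each table name no gene and were left out (19.7 to 20.7% of fragments). The authors also deposited RSEM expected counts, which were rounded before testing, and TPM values. RSEM divides fragments that match several genes, whereas the counts leave out those that match several genes on the same strand.

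Counts were scaled by TMM and filtered with filterByExpr (minimum count 10), and 20725 genes were tested with edgeR (4.0.16, under R 4.3.3), using its quasi-likelihood fit. *P* values were adjusted over all of them by the Benjamini-Hochberg method. CPM used TMM factors, and log2 CPM a prior count of 2. The fits were also run on simulated counts with changes far larger than those of the synthetases, which does not bear on differences of their size. *VARS2* (79 to 235 counts per library), *SARS2* (579 to 873) and *PARS2* (828 to 1779) had the fewest counts among the synthetases. All libraries differed beyond counting noise (chi-square per gene 15.2 or more). Alternatives were limma-voom (limma 3.58.1, the study's method), DESeq2 1.42.0, other scaling and filters, RSEM values, strand, each library left out and the replicate number as a block. The replicate block was used because every same-numbered pair shared its deviations, as the values show and not the labels.

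The members and gene lists were chosen with earlier results of these data known. Genes of the other lists are named where the *P* value was under 0.05 without the block or the adjusted p under 0.05 with it, besides *ATF4*, *DDIT3* and *ASNS*. The synthetases are named at the extremes of level and fold change. *QRSL1*, *EIF2AK4*, *EIF2AK2*, *EEF1E1*, *AARSD1*, *GBP2* and the genes that follow replicate numbers were named after their values were seen.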

Additional observations from a re-analysis of the deposited data

How the results depend on the processing

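For the 35 synthetases and 23 alternatives, 2 of 805 fits passed an adjusted p of 0.05, *TARS1* (-0.097) and *WARS1* (0.12) with the replicate block and without the pair numbered 1. Apart from *SARS2* and *VARS2*, no log2 fold change exceeded 0.13 in size. The number of cytosolic genes at a *P* value under 0.05, 1 as reported, was 0 with DESeq2, with counts without regard to strand and with no filter on low counts, 2 with log2(TPM + 1) and with log2(TPM + 0.1), 4 with the replicate block, 4 with the block and limma-voom, 4 with the block and RSEM expected counts, and 3 with the block and library size alone. It ranged from 0 to 1 with single libraries left out, and with the block it was 5, 1 and 3 without the pairs numbered 1, 2 and 3. The share of all genes at this limit moved too. It was 3.53% as reported and 16.5 to 17.6% in the block fits of all 6 libraries. Without the pairs numbered 1, 2 and 3 it was 21.1, 8.94 and 13.4%. The mitochondrial number, 0 as reported, was 3 with the replicate block and with limma-voom under it, 2 with the block and RSEM expected counts and with the block and library size alone, and 0 to 3 with pairs left out under the block. The cytosolic median log2 fold change was -0.0199 with log2(TPM + 1), -0.02 with log2(TPM + 0.1), -0.012 to 0.00933 with single libraries left out and -0.0103 to 0.00535 with pairs left out. The mitochondrial median ranged from -0.00849 to 0.0177 with single libraries left out. It was -0.00195 without *SARS2* and *VARS2*, a choice made after seeing the data. With length-scaled counts in place of RSEM TPM, the cytosolic sum was 3227 in DMSO and 3205 in S767, and the mitochondrial sum 471.4 and 473.4. With expected counts per base of joined exons, chosen after seeing the data, the ratio of *FARSA* to *FARSB* in DMSO was 4.2017 in place of 12.6, and that of *CARS1* to *CARS2* was 1.3165 in place of 0.841. The cause of these shifts was not tested.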
